A study of Mus musculus with 11 samples.

Results

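The Sprouty and ERK feedback genes were read in RNA sequencing of gonadal white adipose tissue (WAT) from mice fed a high fat diet (HFD) with or without iodomethylcholine (IMC). The 7 genes were *Spry1*, *Spry2*, *Spry4*, *Spred1*, *Spred2*, *Dusp6* and *Etv5*, and all 7 are among the 12787 genes of the deposited table. They were found by symbol. They were chosen from the differences between the diets in this same table, which were already known, so their values under the 2 diets are a description, and no p is given for them. IMC is a small molecule that inhibits the gut microbial enzyme CutC, which releases trimethylamine from choline. All 11 mice were male C57BL/6J mice kept for 20 weeks on the 60% HFD. For 6 of them, called IMC-treated mice here, the diet carried 0.06% w/w IMC, and the other 5 were HFD control mice. No mouse carried a transgene or deletion by the labels, while the starting age given for mice on these diets is not tied outright to the sequenced mice and the hour of tissue collection was not stated in the sources used here. The comparison asks what the inhibitor changes in the transcripts of the fat pad.

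Growth factors such as the fibroblast growth factors (FGFs) bind receptor tyrosine kinases, which switch on Ras, Raf, MEK and finally the kinase ERK. Active ERK induces genes whose products act back on the same cascade. Sprouty proteins block the signal between the receptor and Raf, Spred proteins hold the Ras-inactivating protein neurofibromin at the membrane, and Dusp6 removes the phosphates that activate ERK. Etv5 belongs to the ETS family of transcription factors and is a target gene of FGF signaling. In fat, the cascade takes part in the growth and differentiation of adipocyte precursors and in the response of adipocytes to insulin and to FGF21.

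Expression is given as log2 CPM, the log2 of the reads of a gene relative to the library (CPM) after upper-quartile scaling of the libraries. A difference is always the mean of IMC-treated mice minus the mean of HFD control mice on that scale, with the standard error (SE) from limma. The listed genes drew 22320022 to 23635249 reads per library in HFD control mice and 22619505 to 25155366 with IMC, so that 1 read was worth between 0.0403 and 0.0450 CPM. The feedback genes were covered by between 302 and 3982 reads per mouse. Many genes differed between the groups. In limma, 40.9% of all listed genes had an adjusted p under 0.05, 20% being higher and 21.0% lower with IMC, and for 23.1% the ranges of the groups lay apart. In the same fit 1 of the 7 feedback genes was higher, 3 were lower and 3 did not pass, and the groups did not overlap for 2. The median difference was −0.23 over the 7 genes and −0.03 over all listed genes. Since the genes were chosen with this contrast known, nothing is read from these counts.

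*Spry4*, a Sprouty that also binds Raf, was the feedback gene with the largest difference. The gene lies on the minus strand of chromosome 18, from 38586247 to 38601347 in RefSeq of build GRCm38.p6, which is used for all positions here. It stood at 4.39, 4.64, 4.51, 4.70 and 4.53 log2 CPM in the 5 HFD control mice. In the 6 IMC-treated mice its lowest value was 5.47, the median 5.70 and the highest 5.91. Every IMC-treated mouse was thus above every HFD control mouse, with a gap of 0.78 between the groups. The means were 4.55 ± 0.12 (SD, n = 5) and 5.68 ± 0.16 (SD, n = 6), a difference of 1.12 (SE 0.08) or 2.18-fold. *Spry4* ranked 116 of 12787 genes by the size of the difference. In reads, it had 464 to 618 per HFD control mouse and 992 to 1376 per IMC-treated mouse. The difference lay between 1.08 and 1.17 whichever mouse was left out.

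**Figure D1:**
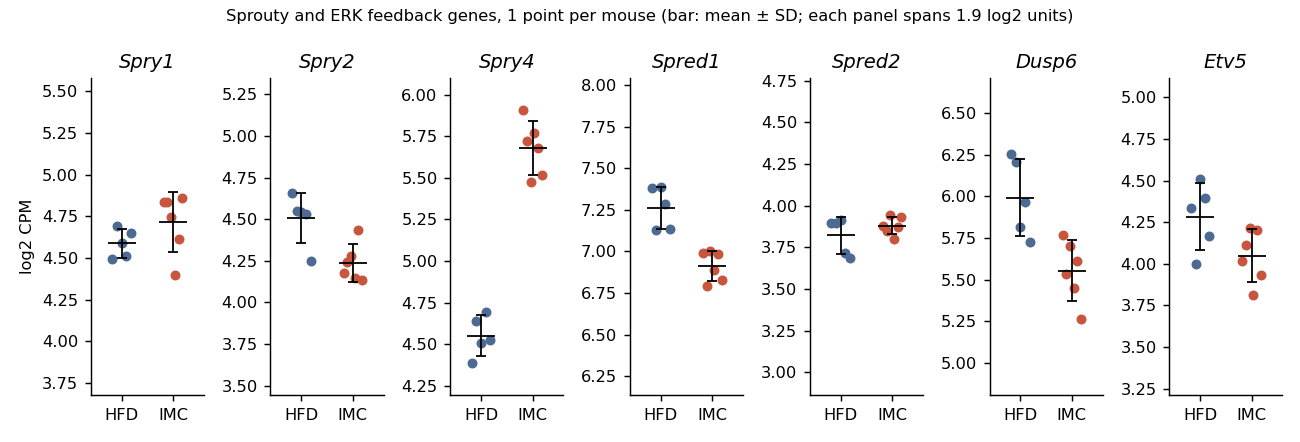
log2 CPM of each gene in each mouse, with HFD control mice (HFD, blue, n = 5) and IMC-treated mice (IMC, red, n = 6) side by side and the mean ± SD in black. Every panel spans the same range of log2 units; the groups separate for *Spry4* and, by 0.13, for *Spred1*, and overlap for the other 5 genes.

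The other Sprouty genes did not share this pattern. *Spry2*, the most widely studied Sprouty, which interacts with the ubiquitin ligase c-Cbl, lies on the minus strand of chromosome 14, from 105891947 to 105896819. It stood at 4.66, 4.55, 4.54, 4.53 and 4.25 log2 CPM in HFD control mice. Its lowest value in IMC-treated mice was 4.13, with a median of 4.21 and a highest value of 4.44. The groups overlapped because HFD control mouse 5 was below IMC-treated mice 3 and 5, while 4 of the 6 IMC-treated mice were below every HFD control mouse. The means were 4.51 ± 0.15 and 4.24 ± 0.11 (SD, n = 5 and 6), a difference of −0.27 (SE 0.08), so the level with IMC was 0.830 of that without.

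*Spry1*, the Sprouty known for limiting the response of tissue progenitors to growth factors, showed a small and uneven difference. It lies on the plus strand of chromosome 3, from 37639947 to 37644599. HFD control mice had 4.49, 4.69, 4.59, 4.51 and 4.65 log2 CPM, and IMC-treated mice ran from 4.40 through a median of 4.79 to 4.86. In 4 IMC-treated mice the value was above every HFD control mouse, and in IMC-treated mouse 4 it was below every HFD control mouse. The means of 4.59 ± 0.09 and 4.71 ± 0.18 (SD, n = 5 and 6) differed by 0.13 (SE 0.08), which did not pass in limma. Without IMC-treated mouse 4 the difference was 0.19 and passed, the only pass in 11 fits that each left out 1 mouse. Nothing is read from that pass, since the gene was chosen with this contrast known.

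Because these 3 genes differ in length, their levels were also divided by the exon length of each gene, which makes them comparable with each other in CPM per kilobase. *Spry2* was the most abundant Sprouty transcript in every HFD control mouse, with 45.2% ± 3.44 (SD, n = 5) of the Sprouty sum, followed by *Spry1* with 34.3% ± 2.53 and *Spry4* with 20.5% ± 1.63. In IMC-treated mice *Spry4* had 37.3% ± 3.42 (SD, n = 6), *Spry1* 31.4% ± 3.30 and *Spry2* 31.3% ± 2.56. Per kilobase, *Spry4* therefore went from the least abundant of the 3 in every HFD control mouse to the most abundant in 5 of 6 IMC-treated mice. The exception was IMC-treated mouse 6, where *Spry1* was higher. This order depends on the exon lengths used, 2906 bases for *Spry1*, 2087 for *Spry2* and 4755 for *Spry4*. Without division by length, their mean CPM was 24.1, 22.8 and 23.5 in HFD control mice and 26.4, 18.9 and 51.4 in IMC-treated mice. The share of *Spry4* ran from 18.1% to 22.4% without IMC and from 33.5% to 42.1% with it. The sum of the 3 genes was 24.2 ± 0.975 CPM per kilobase in HFD control mice and 29.0 ± 1.5 in IMC-treated mice, with ranges of 22.6 to 25.3 and 27.2 to 31.1. Within a mouse, the log2 ratio of *Spry4* to *Spry2* per kilobase had a mean of −1.14 ± 0.21 without IMC and 0.25 ± 0.21 with it, so the pair was near parity in IMC-treated mice. These ratios do not depend on how the libraries were scaled. The changes in share, order and ratio between the groups restate differences that were already known, so nothing is read from their separation.

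**Figure D2:**
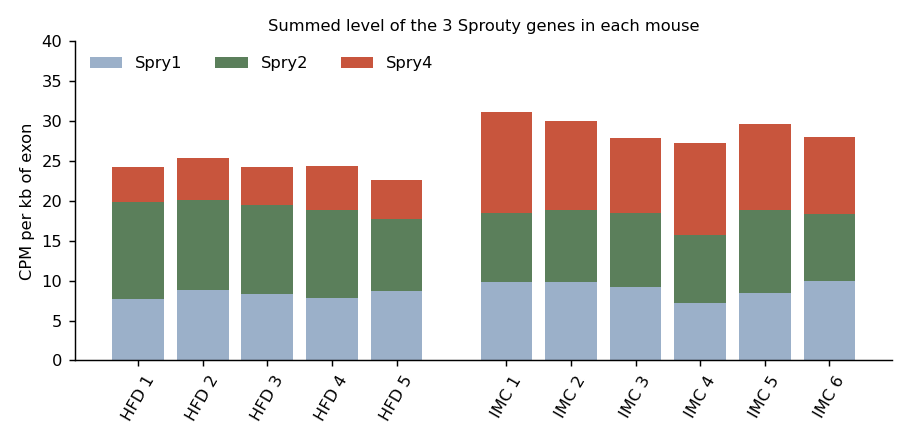
Stacked bars of the CPM per kilobase of exon of *Spry1*, *Spry2* and *Spry4* in each HFD control mouse (HFD 1 to HFD 5) and each IMC-treated mouse (IMC 1 to IMC 6). The *Spry4* segment is 4.40 to 5.46 CPM per kilobase high without IMC and 9.34 to 12.6 with it, and the *Spry2* segment is 9.13 to 12.1 high without IMC and 8.41 to 10.4 with it.

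The Spred genes were led by *Spred1*, whose human counterpart is mutated in Legius syndrome. The gene spans 117121071 to 117182279 on the plus strand of chromosome 2. It stood at 7.38, 7.13, 7.39, 7.28 and 7.14 log2 CPM in HFD control mice, and its lowest, median and highest values in IMC-treated mice were 6.79, 6.93 and 7.001. All 6 IMC-treated mice were below all HFD control mice, by a margin of 0.13. The means were 7.26 ± 0.13 and 6.91 ± 0.09 (SD, n = 5 and 6), a difference of −0.35 (SE 0.06), so the level with IMC was 0.784 of that without. It was between −0.38 and −0.32 whichever mouse was left out.

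*Spred2*, its close relative, spans 19924442 to 20024026 on the plus strand of chromosome 11. It had 3.90, 3.89, 3.91, 3.72 and 3.69 log2 CPM in HFD control mice. IMC-treated mice had a lowest value of 3.80, a median of 3.88 and a highest value of 3.94, inside or close to the range of the controls. The means of 3.82 ± 0.11 and 3.88 ± 0.05 (SD, n = 5 and 6) differed by 0.06 (SE 0.06), which did not pass. The log2 ratio of *Spred1* to *Spred2* per kilobase was 2.89 ± 0.12 in HFD control mice and 2.48 ± 0.09 in IMC-treated mice. *Spred1* thus outweighed *Spred2* in all 11 mice, and by less in every IMC-treated mouse than in any HFD control mouse. The ratio restates the differences of the 2 genes, which were already known, so nothing is read from this separation.

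*Dusp6*, the cytoplasmic phosphatase that dephosphorylates ERK, spans 99263231 to 99267489 on the plus strand of chromosome 10. It stood at 6.25, 6.20, 5.82, 5.97 and 5.73 log2 CPM in HFD control mice. Its lowest, median and highest values in IMC-treated mice were 5.26, 5.57 and 5.77. The groups overlapped narrowly, since IMC-treated mouse 1 was above HFD control mouse 5, and the other 5 IMC-treated mice were below every HFD control mouse. The means were 5.99 ± 0.23 and 5.55 ± 0.18 (SD, n = 5 and 6), a difference of −0.44 (SE 0.11), which leaves 0.738 of the control level. The difference was between −0.51 and −0.37 whichever mouse was left out. *Dusp6* overlaps another annotated gene, *Gm34921*, and the strand setting of the counting was not stated, so its count could be affected by the overlap.

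*Etv5*, the ETS factor among these genes, spans 22381313 to 22439570 on the minus strand of chromosome 16. Its values were spread widely in both groups. HFD control mice had 4.33, 3.999, 4.51, 4.40 and 4.17 log2 CPM, and IMC-treated mice ran from 3.81 through a median of 4.06 to 4.22. In 2 of the 6 IMC-treated mice the value was below every HFD control mouse. The means of 4.28 ± 0.20 and 4.05 ± 0.16 (SD, n = 5 and 6) differed by −0.23 (SE 0.10), which did not pass in limma. It did pass after total-count scaling, at −0.27, and without HFD control mouse 2, at −0.30. Nothing is read from these passes, since the gene was chosen with this contrast known.

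**Figure D3:**
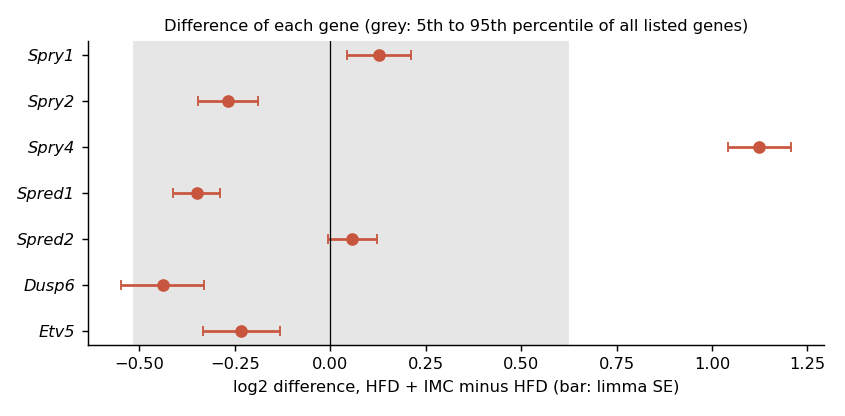
Difference in log2 CPM between IMC-treated and HFD control mice for each of the 7 genes, with bars of 1 limma SE, over a grey band that holds the differences of all listed genes between the 5th and the 95th percentile (−0.51 to 0.62). *Spry4*, at 1.12, lies outside the band, and the other 6 genes lie inside it, between −0.44 and 0.13.

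*Spry4* and *Dusp6* had the highest and the lowest difference among the feedback genes, 1.12 and −0.44. The log2 ratio of *Spry4* to *Dusp6* per kilobase had a mean of −2.04 ± 0.28 without IMC and −0.48 ± 0.19 with it (SD, n = 5 and 6). Its ranges of −2.47 to −1.80 and −0.83 to −0.29 did not overlap. Both differences were already known, so the ratio restates them and nothing is read from the separation.

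The promoters of the genes that were lower in IMC-treated mice are shown because ERK acts on many of its target genes through ETS factors, the family of *Etv5*, whose DNA motif has the core GGAA. The RefSeq promoter table used here, of build GRCm38.p6, covers 250 bases before to 50 after each start site and matched 6 of the 7 genes, *Spry4* not among them. Each sequence reads 5′ to 3′ along the strand of its gene, and capitals mark GGAA on either strand. *Spry2* lies on the minus strand, with the promoter at chr14:105896770-105897069. *Spred1* lies on the plus strand, at chr2:117120821-117121120, and *Dusp6* on the plus strand, at chr10:99262981-99263280.
Spry2: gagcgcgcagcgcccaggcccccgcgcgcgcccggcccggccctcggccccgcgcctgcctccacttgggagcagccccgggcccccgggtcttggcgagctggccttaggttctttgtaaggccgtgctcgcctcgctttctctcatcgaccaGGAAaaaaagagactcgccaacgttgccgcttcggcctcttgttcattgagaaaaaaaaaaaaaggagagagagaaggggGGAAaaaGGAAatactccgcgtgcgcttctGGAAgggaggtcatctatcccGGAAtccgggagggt
Spred1: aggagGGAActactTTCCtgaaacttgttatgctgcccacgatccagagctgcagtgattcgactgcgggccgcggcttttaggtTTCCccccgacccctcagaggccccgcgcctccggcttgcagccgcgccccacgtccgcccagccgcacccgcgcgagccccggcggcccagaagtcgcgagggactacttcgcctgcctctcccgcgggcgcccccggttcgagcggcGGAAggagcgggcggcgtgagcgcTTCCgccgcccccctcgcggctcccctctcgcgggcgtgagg
Dusp6: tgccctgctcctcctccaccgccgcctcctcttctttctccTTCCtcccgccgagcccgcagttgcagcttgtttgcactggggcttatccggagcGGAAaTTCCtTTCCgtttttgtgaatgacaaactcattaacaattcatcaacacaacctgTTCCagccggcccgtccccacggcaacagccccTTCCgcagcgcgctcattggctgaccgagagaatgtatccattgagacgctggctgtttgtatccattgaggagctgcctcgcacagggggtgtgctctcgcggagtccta

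The core occurred 5 times in the *Spry2* promoter, 5 times in that of *Spred1* and 6 times in that of *Dusp6*. It was as frequent in *Spred2*, which did not pass, with 7 matches, while *Spry1* had 1. *Etv5* has 2 annotated start sites in the table, and the promoters had 0 and 6 matches. Among all 32851 promoters of this length, 96.0% held GGAA at least once on either strand, with a median of 3 matches, so nearly all promoters share it. The longer ETS motif CCGGAAG, in 8.86% of all promoters, was in none of the promoters of the feedback genes. The AP-1 motif TGANTCA (7.81% of all promoters), the cAMP response motif TGACGTCA (1.79%), the E-box CACGTG (7.15%), the CArG box bound by SRF (1.63%) and TATAAA (13.6%) were likewise not found in these windows. CCAAT, in 37.4% of all promoters, was found in *Spry1*, *Spred2*, *Dusp6* and *Etv5*. These are matches of letters within 300 bases, not sites of binding. The windows of the 6 genes were rich in G and C, from 57.0% in *Spred2* to 74.0% at the first *Etv5* start site, with 57.3% in *Dusp6*, 62.7% in *Spry2* and 72.3% in *Spred1*, against a median of 52.7% over all promoters.

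On the scale of CPM per kilobase, the 7 genes spanned a wide range of levels. Without IMC, *Spred1* was highest at 22.7 ± 1.97 (SD, n = 5), followed by *Dusp6* at 20.5 ± 3.30, *Spry2* at 10.9 ± 1.09 and *Spry1* at 8.29 ± 0.49. *Spry4* at 4.95 ± 0.41, *Etv5* at 4.78 ± 0.65 and *Spred2* at 3.07 ± 0.23 were lowest. Neighbours whose ranges overlapped were *Spred1* and *Dusp6*, in this order in 4 of 5 mice, and *Spry4* and *Etv5*, in this order in 3 of 5.

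In IMC-treated mice *Spred1* at 17.8 ± 1.10 (SD, n = 6) and *Dusp6* at 15.1 ± 1.85 again led, and *Spry4* at 10.8 ± 1.22 came next, having passed *Spry2* and *Spry1*. *Spry1* at 9.09 ± 1.07 and *Spry2* at 9.06 ± 0.73 were level, with *Spry1* above in 3 of 6 mice. *Etv5* at 4.05 ± 0.44 and *Spred2* at 3.19 ± 0.12 closed the order in all 6 mice. Ranges overlapped between every pair of neighbours from *Spred1* down to *Spry2*. *Spred2* was the lowest of the 7 in all 11 mice.

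The variation between mice on the same diet does not use the difference between the diets. For each pair of genes, Pearson's r and Spearman's rho were calculated over the 11 mice after the mean of each group was removed, as a description with no p. The points of a pair come from the same libraries and share their depth and their mix of cells. Among the 21 pairs, r ran from −0.48 for *Spry4* with *Spred2* (rho −0.50) to 0.69 for *Spred1* with *Etv5* (rho 0.73), and 13 pairs were positive. Above 0.5 were 5 pairs, of which 4 contained *Spry2*: with *Dusp6* (r 0.63, rho 0.66), with *Spred1* (r 0.58, rho 0.43), with *Spred2* (r 0.53, rho 0.55) and with *Etv5* (r 0.52, rho 0.45). *Spry4* and *Spry1* both stood apart. The r of *Spry4* was 0.15 with *Dusp6* (rho 0.10), −0.08 with *Spry1* (rho −0.02) and −0.15 with *Spry2* (rho −0.23). That of *Spry1* ran from −0.34 with *Spred1* (rho −0.42) to 0.28 with *Spred2* (rho 0.07). With 11 mice these values move easily. When each mouse was left out in turn, the r of *Spry2* ran from 0.46 to 0.75 with *Dusp6*, from 0.41 to 0.72 with *Spred1*, from 0.17 to 0.66 with *Spred2* and from 0.44 to 0.74 with *Etv5*, and the lowest value of the first 3 pairs came without HFD control mouse 5 and of the last without IMC-treated mouse 5. The r of *Spry4* with *Dusp6* ran from −0.09 to 0.44.

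**Figure D4:**
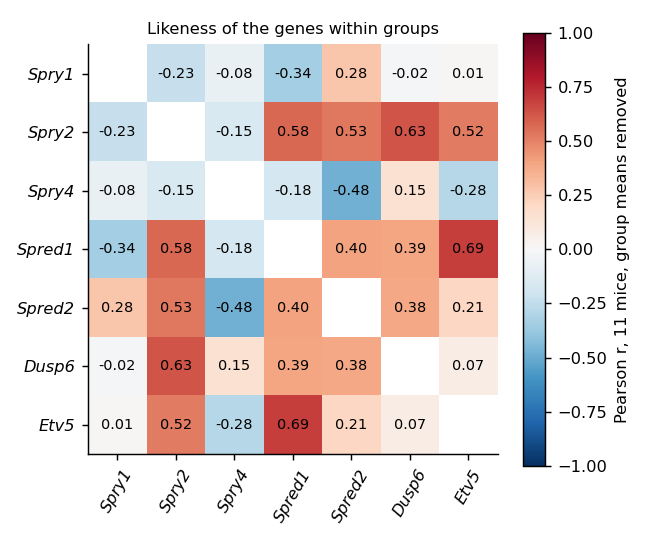
Pearson's r between each pair of the 7 genes over 11 mice, with the mean of each group removed, printed in each cell and coloured from blue (−1) to red (1). The row of *Spry2* holds 4 values above 0.5, and the row of *Spry4* holds its single positive value, 0.15, with *Dusp6*. The highest value in the row of *Spry1* is 0.28, with *Spred2*.

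Among all listed genes, the 5 whose level followed *Spry4* most closely within the groups were *D5Ertd579e* (r 0.93, rho 0.92), *Megf9* (r 0.92, rho 0.97), *Rrm2b* (r 0.91, rho 0.87), *Atl3* (r 0.90, rho 0.96) and *Ddx3y* (r 0.88, rho 0.91), each over 11 mice. They are the highest values out of 12786 genes. *D5Ertd579e* was also higher in IMC-treated mice, by 0.56 (SE 0.06, limma adjusted p = 3.5e-05), as were *Megf9* by 0.54, *Atl3*, an endoplasmic reticulum GTPase, by 0.39, and *Ddx3y*, a Y-linked RNA helicase, by 0.26. *Rrm2b*, a subunit of ribonucleotide reductase, differed by 0.15 and did not pass. No other feedback gene was among these 5.

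Genes upstream of the feedback genes were read from lists of the pathway, starting with the ligands and receptors. All pathway and marker lists were chosen with earlier results of these data known, so their counts and shares are a description. Of 17 genes of FGF signaling, 13 were listed, and 7 were higher in IMC-treated mice, none was lower and 6 did not pass, with a median difference of 0.14. That is 53.8% of the list called, against 40.9% of all listed genes, of which 20% were higher. With a mouse left out, 5 to 7 of the list were called. *Klb*, the coreceptor through which FGF21 acts, rose from 4.18 ± 0.19 to 5.18 ± 0.18 log2 CPM, by 1.001 (SE 0.10, limma adjusted p = 3.5e-05). *Fgfrl1*, an FGF receptor without a kinase domain, rose by 0.84 (SE 0.08, limma adjusted p = 2.67e-05), and the values of the groups were 6.41 to 6.84 and 7.37 to 7.68. *Fgf13*, an intracellular member of the FGF family, rose by 0.91 (SE 0.09, limma adjusted p = 3.22e-05), but overlaps 5 annotated genes. *Egfr* and *Lrig1* overlap 2 annotated genes each and *Nrg4*, *Ntrk2*, *Angpt2* and *Cblb* overlap 1 each, so the counts of these genes, described next, could be affected too. The receptor *Fgfr1* was at 7.96 and 7.95 log2 CPM and did not pass. *Fgfr2*, *Fgfr3*, *Fgfr4* and *Kl* were not among the listed genes.

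Of 13 EGF family genes 7 were listed, and 3 were higher and 4 did not pass, with a median of 0.28 and 42.9% called, near the 40.9% of all genes. *Nrg4*, a ligand secreted by adipocytes, rose by 0.90 (SE 0.17, limma adjusted p = 0.00141), *Btc* by 0.54 (SE 0.15, limma adjusted p = 0.0107) and the receptor *Egfr* by 0.28 (SE 0.07, limma adjusted p = 0.0100). Of 30 other receptor tyrosine kinases and ligands 8 were higher, 6 lower and 16 did not pass, with a median of 0.05 and 46.7% called, also near that share. *Ntrk2*, the receptor of brain-derived neurotrophic factor, rose by 1.04 (SE 0.14) and *Vegfa*, the main angiogenic ligand, by 0.56 (SE 0.10). *Angpt2*, the antagonist ligand of the Tie2 receptor, fell by 1.01 on the log2 scale (SE 0.19), from 4.82 to 5.25 without IMC to 3.12 to 4.38 with it.

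Genes of the cascade itself were found on either side. Of 28 genes of the Ras, Raf, MEK and ERK core, 5 were higher, 10 lower and 13 did not pass, with a median of −0.07 and a range of −0.42 to 0.48. That is 53.6% called, against 40.9% of all genes. Without HFD control mouse 1 the 15 called became 9, while the number called over all genes went from 5236 to 4318. *Ptpn11*, the phosphatase Shp2 that promotes Ras activation, rose by 0.48 (SE 0.05, limma adjusted p = 3.5e-05), with no overlap between 7.54 to 7.78 and 8.03 to 8.18. The ERK substrate kinase *Rps6ka3* rose by 0.33 (SE 0.05), while the adaptor *Grb2* fell by 0.27 (SE 0.05, limma adjusted p = 0.000615).

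Other negative regulators were called at shares near the 40.9% of all genes. Of 10 listed dual specificity phosphatases other than *Dusp6*, 4 were higher, 1 lower and 5 did not pass (50% called), with a median of 0.18. *Dusp7*, the close relative of *Dusp6* that also acts on ERK in the cytoplasm, fell by 0.49 (SE 0.09, limma adjusted p = 0.000936). *Dusp9*, another cytoplasmic phosphatase of the same group, rose by 0.91 (SE 0.13, limma adjusted p = 0.000222), and *Dusp10*, which prefers the stress kinases p38 and JNK, rose by 0.57 (SE 0.11). Of 13 other feedback genes of receptor tyrosine kinases 1 was higher, 4 were lower and 8 did not pass (38.5% called), with a median of −0.08, and the 5 called became 3 without HFD control mouse 2 or 4. *Lrig1*, which lowers the level of EGF receptors, rose by 0.68 (SE 0.08, limma adjusted p = 4.77e-05), and the cytokine signaling inhibitor *Socs1* and the Ras-inactivating *Rasal1* fell by 0.85 (SE 0.18) and 0.83 (SE 0.24). *Socs1* was low, at 1.07 and 0.22 log2 CPM, as was *Rasal1*, at 1.62 and 0.79, and the groups overlapped for each. The remaining Spred, *Spred3*, was at 3.05 and 2.98 log2 CPM and did not pass, and *Etv1* and *Etv4*, the ETS factors closest to *Etv5*, differed by −0.39 (SE 0.16) and 0.57 (SE 0.28) without passing. *Etv4* was also low, at −0.25 and 0.31 log2 CPM.

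Immediate early genes, which are transcribed within minutes of ERK activation and of other stimuli, including handling of tissue, were mostly lower in IMC-treated mice. Of 19 listed, 12 were lower, 1 higher and 6 did not pass, with a median of −0.44. In all, 68.4% of the list was called, against 40.9% of all genes, of which 21.0% were lower. With a mouse left out, 9 to 15 of the list were called, against 13 with all mice. Since the list was chosen with earlier results of these data known, its share is a description only. *Jund* fell by 0.75 (SE 0.11, limma adjusted p = 0.000301), *Atf3* by 0.71 (SE 0.12, limma adjusted p = 0.00051) and *Ier5* by 0.49 (SE 0.08, limma adjusted p = 0.000567). *Fos*, *Jun*, *Junb*, *Egr1*, *Egr2*, *Egr3*, *Ier2*, *Myc* and *Klf10* were the other 9 that fell, by 0.20 to 0.77, and *Maff* rose by 0.52 (SE 0.11). Within the groups, the mean level of this list had an r of 0.82 with *Dusp6*, 0.63 with *Spred1* and 0.29 with *Spry4*. These values over 11 mice are a description. Over all pathway lists, r with *Dusp6* ran from −0.35 for FGF genes to 0.82, with 0.71 for other dual specificity phosphatases. With *Spred1* it ran from −0.52 for EGF family genes to 0.80 for the Ras to ERK core. With *Spry4* it ran from −0.27 for other receptor tyrosine kinases and ligands to 0.64 for EGF family genes. The part of the immediate early genes in the differences of *Dusp6* and *Spred1* was not tested.

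Of 10 genes for partners of Sprouty and Spred proteins 2 were higher, 1 lower and 7 did not pass, with a median of −0.08 and 30.0% called, below the 40.9% of all genes. *Cav1*, the caveolar protein that binds Sproutys and is abundant in adipocytes, rose by 0.82 (SE 0.10, limma adjusted p = 5.96e-05). The ubiquitin ligase *Nedd4* rose by 0.52 (SE 0.06), and *Cblb* fell by 0.21 (SE 0.06). *Nf1*, which encodes the neurofibromin bound by Spreds, differed by 0.12 (SE 0.06) and did not pass.

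**Figure D5:**
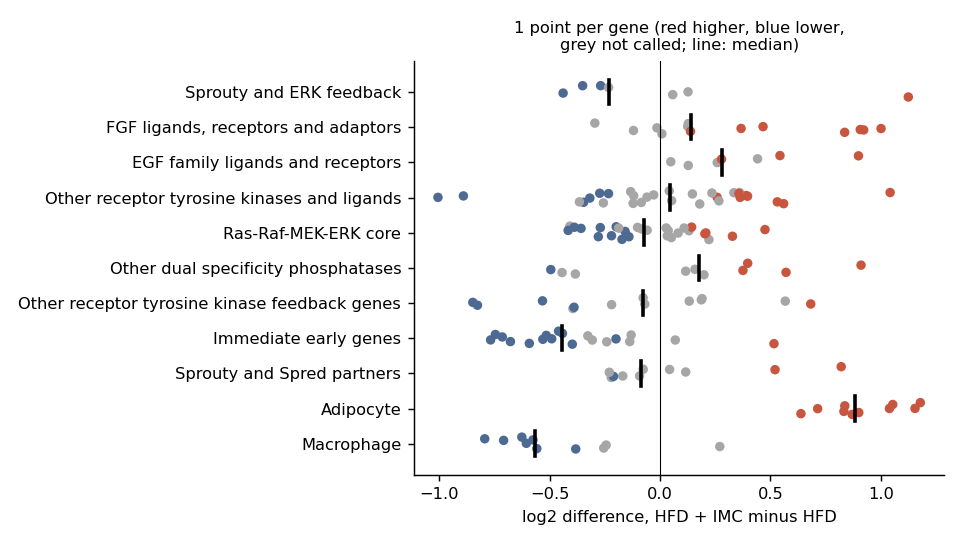
Difference in log2 CPM between IMC-treated and HFD control mice for each gene of the 7 Sprouty and ERK feedback genes, of the 8 pathway lists and of the adipocyte and macrophage markers, with red for genes higher and blue for genes lower at an adjusted p under 0.05 in limma, grey for the rest and a line at the median. Immediate early genes lie mostly left of 0 with a median of −0.44, and FGF genes called in limma lie right of 0. *Spry4*, at 1.12, lies beyond all genes of the pathway lists, but within the span of the adipocyte markers, 0.64 to 1.18.

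Markers of several cell types also differed between the groups. Of all listed genes, 20% were higher and 21.0% lower with IMC. All 10 adipocyte markers were higher in IMC-treated mice, by 0.64 to 1.18, and their sum was 10603 to 15478 CPM in HFD control mice and 21248 to 25431 CPM in IMC-treated mice. The difference of *Spry4*, 1.12, was within that span of differences, and within the groups *Spry4* followed the mean of these markers weakly (r 0.20 over 11 mice). Of 10 macrophage markers 7 were lower, with sums of 6605 to 9067 CPM and 3759 to 6053 CPM, and of 7 progenitor and fibroblast markers 6 were lower. *Spred1* followed the macrophage markers within the groups (r 0.73) and ran against the adipocyte markers (r −0.78), whereas *Dusp6* followed neither closely (r 0.21 and −0.15). In bulk tissue, fewer cells of a type and less RNA per cell cannot be told apart, and the part of these cell types in the differences of *Spry4*, *Spred1*, *Spry2* and *Dusp6* was not tested.

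Among the other cell types, all 5 mast cell markers were lower, with differences of −1.56 to −1.34, and *Spry4* ran against them within the groups (r −0.70). All 3 listed skeletal muscle markers were higher, by 1.23 to 3.02, at summed levels of 15.3 to 22.0 CPM and 51.5 to 71.5 CPM. Of 6 endothelial markers 2 were higher, of 4 listed smooth muscle and pericyte markers 2 were higher and of 4 listed mesothelial markers 1 was lower, and the rest of these did not pass. These are 33.3%, 50% and 25% called, against 40.9% of all listed genes, so nothing is read from these 3 counts. *Spred1* also ran against the smooth muscle and pericyte markers (r −0.83, the farthest from 0 of its values with these lists) and the endothelial markers (r −0.75), and followed the progenitor and fibroblast markers (r 0.59). The 5 T cell and 4 B cell markers were not among the listed genes. The part of each of these cell types in the differences of the feedback genes was not tested.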

How the data were processed

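RNA sequencing of gonadal WAT was analysed from 11 mice, 1 library per mouse, in the groups HFD (n = 5) and HFD + IMC (n = 6) that the labels give. The authors used Trim Galore for trimming and STAR for alignment to mm10 and for counts per gene. The authors dropped genes with low counts, applied upper-quartile scaling, and deposited log2 CPM from edgeR for 12787 genes. The filter counts that the paper states, in transcripts, do not give this number of genes, and the reason is not stated. The same deposited table holds the authors' fold change, likelihood-ratio score, p-value and FDR, which were not used. Each log2 CPM could be turned back into whole reads (tolerance 0.05 reads), which gave the depths and the alternative scalings.

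Groups were compared with limma 3.58.1 in R 4.3.3 (lmFit and eBayes with a trend), which fits log2 values, with Benjamini-Hochberg adjustment over all 12787 genes, a threshold of 0.05 and no further filter. The fit was tested on simulated data. Other settings were no variance trend, a filter at 0 log2 CPM, total-count and median-of-ratios scaling, an added constant of 2 reads, voom on the recovered reads and leaving out each mouse. The 7 genes, the pathway lists and the marker lists were chosen with earlier results of these data known. Named genes are the 7, the 3 with the smallest p in each pathway list and the 5 most like *Spry4*. Others were chosen after their values were seen, as family members or to complete a count, namely *Fgfr1*, *Spred3*, *Etv1*, *Etv4*, *Nf1* and 10 immediate early genes. Exon lengths came from GENCODE, positions and promoters from RefSeq on GRCm38.p6, the same build as mm10. Motifs were searched on both strands. CPM intervals from reads would cover counting error only, because reads are not independent molecules.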

Additional observations from a re-analysis of the deposited data

Results flagged for a closer look

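In 72 groups of mice, 1 for each named gene and diet, 5 held a mouse far from the rest by Dixon's criterion, which chance meets in about 1 of 20 groups. None was a group of the 7 Sprouty and ERK feedback genes. *Fgf13* was 6.97 log2 CPM in IMC-treated mouse 1, above the next value of 6.72, and *Ptpn11* was 8.03 in the same mouse, below the next value of 8.12. *Dusp9* was 3.28 in HFD control mouse 1, below the next value of 3.68. *Atf3* was 8.58 in HFD control mouse 1, above the next value of 8.25, and 7.06 in IMC-treated mouse 6, below the next value of 7.53. All 4 genes passed in limma with each mouse left out in turn.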

How the results depend on the processing

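The 7 feedback genes kept their direction in all 119 alternative fits, which lends no support to their differences, since these values chose them. *Etv5* was called with total-count scaling and without HFD control mouse 2, and *Spry1* without IMC-treated mouse 4. Over all genes, 5236 passed, 5053 to 5464 under other settings and 4299 to 5125 with a mouse left out. Total-count scaling gave 2203 higher and 3261 lower, against 2556 and 2680. The median difference of all genes stayed between −0.06 and −0.02. Leaving out a mouse moved the genes passing in the Ras to ERK core from 15 to between 9 and 16, with 9 without HFD control mouse 1, and in the other feedback genes from 5 to between 3 and 6, with 3 without HFD control mouse 2 or 4. In the FGF list it left 5 to 7 passing, against 7, and in the immediate early list 9 to 15, against 13. The cause was not tested. Of 492 fits of other named genes, 491 kept the call, and *Rrm2b* passed at 0.19 without IMC-treated mouse 6. *Socs1* was dropped by the filter at 0 log2 CPM and so has no fit there. Of 231 correlations with a mouse left out, 68 moved by at least 0.1. No paired analysis was possible because the labels give the mice no numbers shared between the groups.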
